A study of Saccharomyces cerevisiae with 10 samples.

Results

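The transcripts described here come from 10 budding yeast genes that build and move the mitotic spindle, taken by name as a group that shares a function, with no threshold on a measured value. They are 10 of the 6816 genes that the deposited tables list on rows of their own, and each of them was measured in all 9 comparisons. Polyadenylated RNA of Saccharomyces cerevisiae was sequenced from 10 cultures of the S288C background, all segregants dissected from tetrads of strains heterozygous for an rsc mutation. RSC is an essential chromatin remodeller that slides and evicts nucleosomes at promoters, and the study compared strains lacking one of its subunits with wild type (WT). Experiment 1 held 6 libraries from logarithmic cultures in YPD, a rich glucose medium, titled as grown for 10 generations: WT, htl1Δ, npl6Δ, rsc1Δ, rsc2Δ and rtt102Δ. The 4 libraries of experiment 2 came from a WT and an htl1Δ genotype that both carry GALpr-HTL1, HTL1 behind a galactose promoter. These were grown to saturation in YPGR, taken here to be a galactose and raffinose medium, and then kept growing for 10 generations in YPGR or in YPD.

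With 1 library per strain and medium there was no replicate to check a difference against, no test was made, and every value describes a single culture. About 9000000 to 11850000 fragments lay behind each library, estimated from the steps between its low values. The 5 deletion strains of experiment 1 were all set against 1 WT library, which their ratios therefore share. In experiment 1 each deleted gene was nearly absent from its own library, from 293 to 2.09 FPKM for HTL1 to 28.4 against a listed 0 for RSC2. In experiment 2 the libraries labelled htl1Δ still held HTL1, at 232 FPKM against 555 in WT in YPD and at 2782 against 2973 in YPGR. In experiment 1 STE2, the receptor gene of a cells, had 6.60 FPKM in WT and 5.05 in npl6Δ, and 343 to 746 in the other 4 deletions, so WT and npl6Δ were of alpha type and the rest of a type. In experiment 2 the library labelled htl1Δ had 575 FPKM of STE2 in YPD and the other 3 had 6.29 to 6.73, so the 2 libraries labelled htl1Δ were of different mating type. They are called by their labels below. HTL1 in YPD was at 20.3% of its YPGR level in WT and at 8.88% in htl1Δ. In both medium comparisons the medium and the HTL1 level therefore cannot be told apart. In that of htl1Δ the medium and the mating type cannot be told apart either. Nor can deletion and mating type in the comparisons of an a-type library with WT, for which the rtt102Δ library, also of a type, is a second reference.

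Microtubules are hollow polymers of alpha and beta tubulin, and in yeast they form the short spindle inside the nucleus and the few cytoplasmic microtubules that position it. Kinesins walk along them: kinesin-5 motors push the spindle poles apart, the minus-end motor Kar3 pulls against them, and other kinesins set microtubule length. Crosslinkers such as Ase1 hold the overlapping microtubules of the spindle midzone together. RSC mutants, htl1Δ among them, are known for gains in ploidy, and the ploidy of these cultures is not given in the labels.

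The alpha tubulins are TUB1 (YML085C, chromosome XIII, 97941 to 99400, minus strand, 2 coding exons) and TUB3 (YML124C, chromosome XIII, 22048 to 23683, minus strand, 2 coding exons). TUB2 (YFL037W, chromosome VI, 56336 to 57709, plus strand) encodes the only beta tubulin. The kinesin-5 motors are KIP1 (YBL063W, chromosome II, 101886 to 105221, plus strand) and CIN8 (YEL061C, chromosome V, 36535 to 39537, minus strand). KIP2 (YPL155C, chromosome XVI, 257216 to 259336, minus strand) encodes a plus-end-directed kinesin of cytoplasmic microtubules. KIP3 (YGL216W, chromosome VII, 84839 to 87302, plus strand) encodes a kinesin-8 that shortens microtubules at their plus ends. KAR3 (YPR141C, chromosome XVI, 815734 to 817923, minus strand) encodes the kinesin-14 of mitosis and of nuclear fusion in mating. ASE1 (YOR058C, chromosome XV, 433688 to 436345, minus strand) encodes the midzone crosslinker, and STU1 (YBL034C, chromosome II, 153848 to 158389, minus strand) a microtubule-binding CLASP protein needed for the spindle. Coordinates are those of the tables, in sacCer3, and all genes but TUB1 and TUB3 have 1 coding exon in RefSeq. The table's KIP3 locus starts at 84839, where RefSeq has 84885, because it is joined with an open reading frame on the other strand, so KIP3 values may hold some of its reads.

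Upstream sequence is shown for the 2 kinesin-5 genes, because KIP1 carries the widest difference among the 10 genes and its partner CIN8 does not. The stretches run from base -300 to base -81 before the start codon, 5′ to 3′ on the strand of the gene, read from the R64 genome (the build of the tables). For KIP1 this is chrII:101586-101805 on the plus strand, and for CIN8 chrV:39618-39837 on the minus strand. Capitals mark every match to CGCGC or its reverse complement GCGCG, the core of the site bound by Rsc3, a DNA-binding subunit of RSC.
KIP1: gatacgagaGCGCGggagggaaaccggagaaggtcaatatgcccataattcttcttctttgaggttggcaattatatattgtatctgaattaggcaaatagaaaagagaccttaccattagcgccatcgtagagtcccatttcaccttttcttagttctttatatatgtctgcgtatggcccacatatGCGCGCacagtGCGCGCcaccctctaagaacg
CIN8: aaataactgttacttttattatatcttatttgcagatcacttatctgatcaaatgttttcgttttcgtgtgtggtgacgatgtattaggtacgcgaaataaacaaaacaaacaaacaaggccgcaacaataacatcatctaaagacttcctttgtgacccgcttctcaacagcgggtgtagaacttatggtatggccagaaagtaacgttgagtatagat

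In the 300 bases before the start codon KIP1 held 6 matches to CGCGC on either strand, at -291, -112, -111, -101, -100 and -41, the last of them past the end of the stretch shown. The matches at -112 and -111 overlap, as do those at -101 and -100, since each pair is 1 palindromic run read on both strands. At least 1 match was present in 12% of the 6007 windows of this length in the genome, and as many as 6 in 5 windows, or 0.0832%. STU1 held 1 match, at -177, and the other 8 genes held none. The SCB-type motif CGCGAAA, known from G1/S promoters and present in 3.95% of windows, matched once upstream of TUB1, at -154, and of CIN8, at -209. The forkhead-type motif GTAAACA, present in 6.99% of windows, matched once upstream of KAR3, at -220. The MCB motif ACGCGT, present in 3.48% of windows, matched none of the 10. A match describes letters only and shows neither binding nor an effect.

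**Figure D1:**
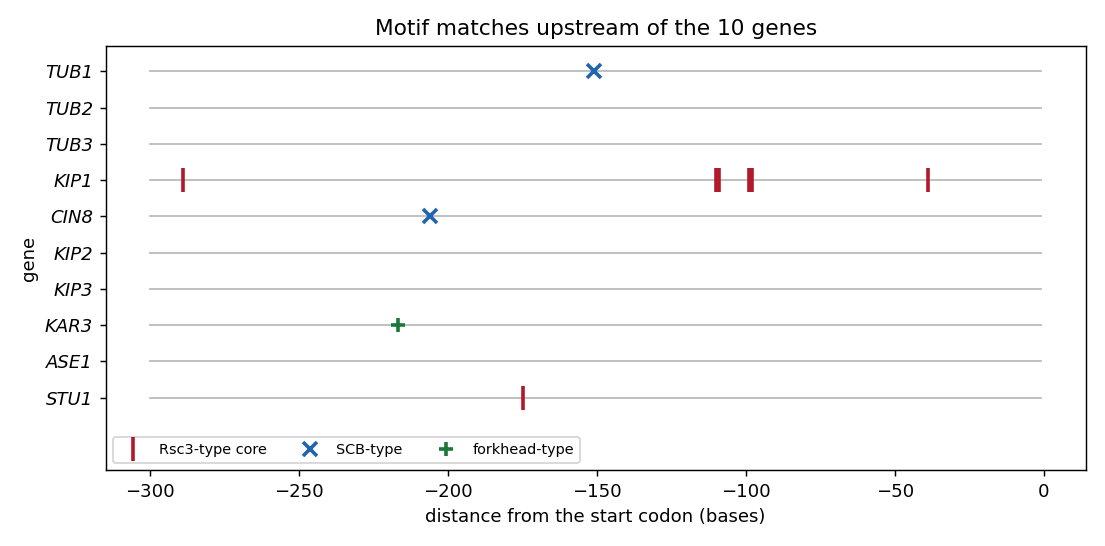
Matches to 3 motifs in the 300 bases before the start codon (0) of the 10 genes, on either strand, with the distance from the start codon in bases on the x axis and 1 line per gene. Each symbol is the centre of a match: KIP1 carries 6 Rsc3-type matches (CGCGC), in part overlapping, STU1 carries 1 and no other gene carries any.

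The levels below are FPKM, a measure per length of transcript and depth of library, so genes can be compared. They were brought to a common scale through the libraries that the tables share, and levels of experiment 1 set beside those of experiment 2 are approximate. TUB2 was the most abundant in 9 of the 10 libraries, at 254 to 437 FPKM. TUB1 was at 238 to 305 FPKM and TUB3 at 128 to 205 FPKM. The motors and crosslinkers were far lower, with medians over the libraries of 23.2 FPKM for KIP2, 19.4 for KIP3, 16.7 for CIN8, 16.2 for ASE1, 13.5 for KAR3, 8.75 for KIP1 and 7.10 for STU1. KIP1 had the widest spread over the libraries, 1.07 on the log2 scale, followed by KIP2 at 0.90 and ASE1 at 0.87. KAR3 had the narrowest, 0.24, and TUB1 spread over 0.35.

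**Figure D2:**
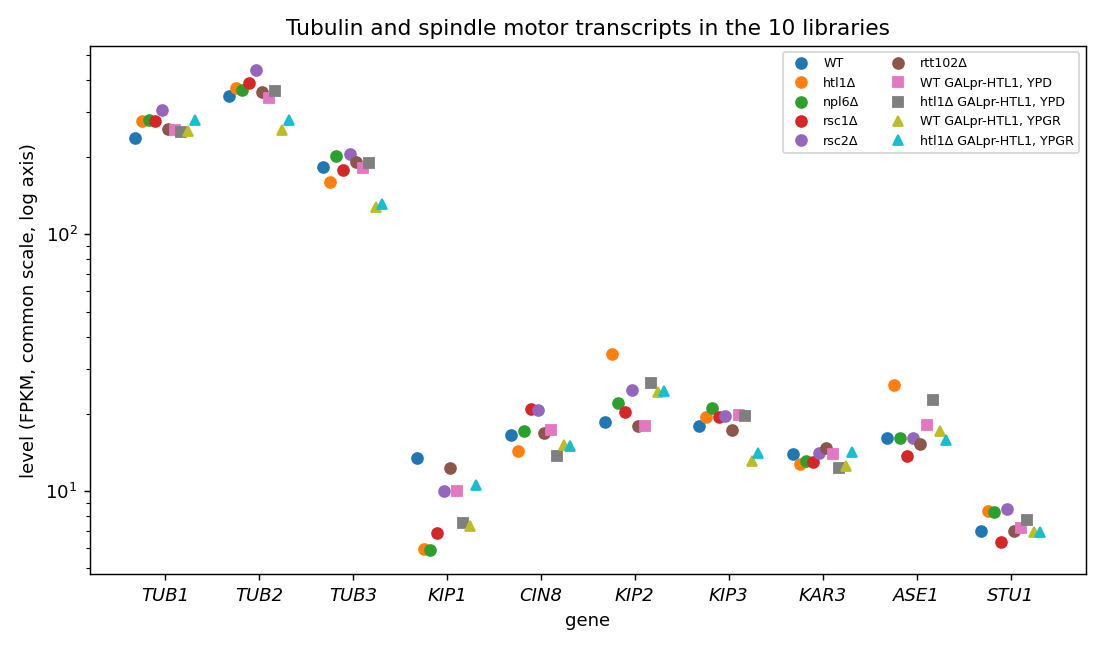
Level of each of the 10 transcripts in FPKM on a common scale (log axis), 1 point per library, with circles for experiment 1, squares for experiment 2 in YPD and triangles for experiment 2 in YPGR. The tubulins lie between 128 and 437 FPKM and the motors and crosslinkers between 5.89 and 34.3 FPKM, with KIP1, KIP2 and ASE1 the most scattered.

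Differences are given as log2((FPKM + 1)/(FPKM + 1)) within a table, the first-named library over the second, and a gene counted as different at 2-fold, a log2 ratio of 1 or more in size. In htl1Δ 1 of the 10 genes, KIP1, was at least 2-fold different, where 6.75% of all genes measured were, and in npl6Δ again 1, KIP1, where 7.85% were. None of the 10 reached 2-fold in rsc1Δ (background 4.15%), rsc2Δ (6.35%) or rtt102Δ (2.44%). None did between htl1Δ and WT of experiment 2 in YPD (5.84%) or in YPGR (1.68%), or between YPD and YPGR in WT (26.2%) or in htl1Δ (27%). A count of 1 in 10 is close to the background of the htl1Δ and npl6Δ comparisons, so these 2 counts do not set the 10 genes apart. In the medium comparisons a count of 0 in 10 lay below the background, and that difference was not tested. The authors' deposited table called none of the 10 significant in any comparison.

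A lower rule of 0.5 on the log2 scale was met by 3 of the 10 in htl1Δ (KIP1, KIP2 and ASE1), where 23.7% of all genes met it. It was met by KIP1 alone in npl6Δ (background 29.1%) and in rsc1Δ (14.9%), and by none in rsc2Δ (24.4%) or rtt102Δ (7.25%). In experiment 2 it was met by KIP2 in YPD (18.2%) and by none in YPGR (5.2%). Between the media it was met by TUB3 and KIP3 in WT (54.1%) and by none in htl1Δ (56%). The median ratio of the 10 lay between 0.01 in rtt102Δ and 0.21 in rsc2Δ, with medians of all genes between -0.01 and 0.01. The typical size of a ratio among the 10 was 0.30 and 0.28 in the 2 medium comparisons, against 0.56 and 0.58 over all genes, as medians of the absolute log2 ratio. In htl1Δ of experiment 1 it was 0.21 against 0.27, and in rsc2Δ 0.28 against 0.26.

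**Figure D3:**
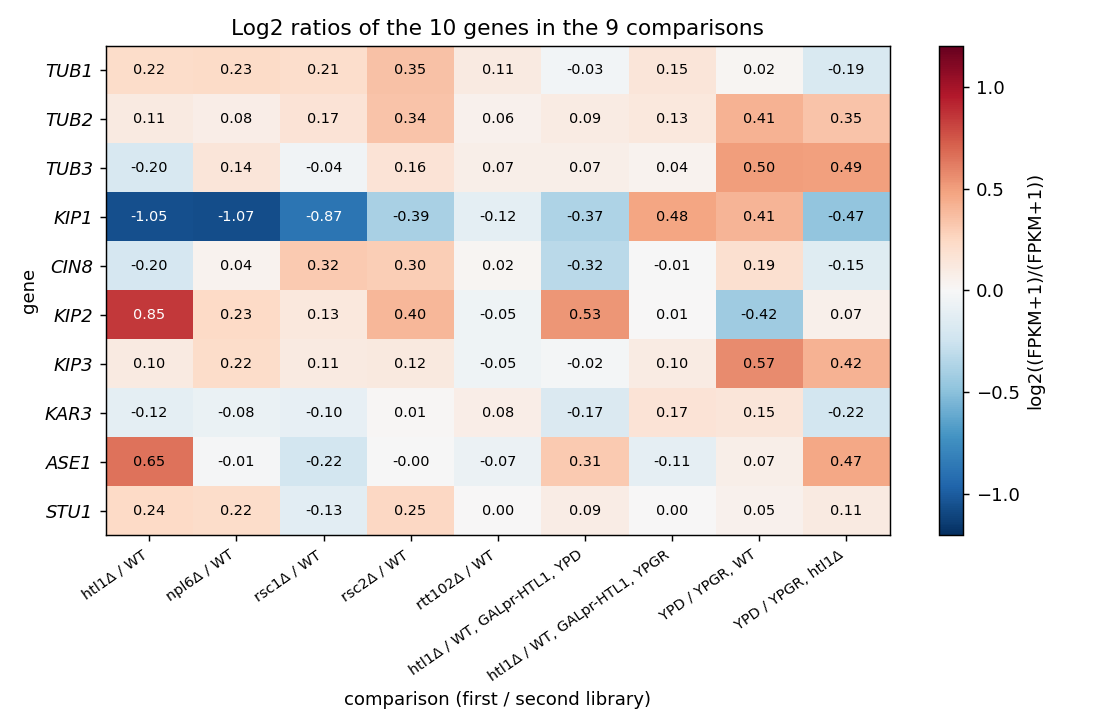
Log2 ratio of each gene (rows) in each of the 9 comparisons (columns, first library over second), red where the first library was higher and blue where it was lower. KIP1 is the darkest row at -1.05 in htl1Δ, -1.07 in npl6Δ and -0.87 in rsc1Δ, and the KIP2 and ASE1 cells of htl1Δ stand at 0.85 and 0.65.

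Among the tubulins, TUB1, which provides most of the alpha tubulin, was at 238 FPKM in WT of experiment 1, 277 in htl1Δ, 279 in npl6Δ, 276 in rsc1Δ, 305 in rsc2Δ and 257 in rtt102Δ. The WT and htl1Δ libraries of experiment 2 had 256 and 251 FPKM of TUB1 in YPD, and 252 and 280 in YPGR. The WT library of experiment 1 was thus the lowest of the 10, and the 5 ratios against it, 0.22, 0.23, 0.21, 0.35 and 0.11, all lie above 0 and share that low value. Against rtt102Δ in place of WT the ratios of htl1Δ, rsc1Δ and rsc2Δ were 0.11, 0.11 and 0.25.

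TUB2, the beta tubulin, was at 345 FPKM in WT of experiment 1, 372 in htl1Δ, 364 in npl6Δ, 388 in rsc1Δ, 437 in rsc2Δ and 359 in rtt102Δ. In experiment 2 it was at 339 FPKM in WT and 362 in htl1Δ in YPD, and at 254 in WT and 278 in htl1Δ in YPGR. rsc2Δ was the highest and the YPGR libraries were the lowest. The rsc2Δ ratio was 0.34, with a 95% counting interval of 0.28 to 0.40, and 39.3% of all genes differed as much in that comparison. Counting intervals here come from the estimated fragments and cover counting error only, not the difference between cultures.

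TUB3, the minor alpha tubulin, was at 183 FPKM in WT of experiment 1, 159 in htl1Δ, 202 in npl6Δ, 178 in rsc1Δ, 205 in rsc2Δ and 191 in rtt102Δ. For WT and htl1Δ of experiment 2 the TUB3 level was 181 and 190 FPKM in YPD, and 128 and 131 in YPGR. Both YPGR libraries lay below all 8 YPD libraries, as they did for TUB2 and KIP3, and not for TUB1. The share of all genes with such a separation was not counted. The YPD over YPGR ratio of TUB3 was 0.50 in WT and 0.49 in htl1Δ, that of TUB2 0.41 and 0.35, and that of TUB1 0.02 and -0.19. In these comparisons 54% and 56.5% of all genes differed as much as TUB3 did.

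Ratios taken inside a library do not depend on the scaling between tables. TUB3 made up 36.5% to 43.4% of the alpha tubulin FPKM in the 8 YPD libraries, with htl1Δ of experiment 1 the lowest, and 33.6% and 32.0% in WT and htl1Δ in YPGR. The summed alpha tubulin FPKM was 1.17 to 1.32 times that of TUB2 in YPD, and 1.49 and 1.48 times in YPGR. Both proportions separated the 2 YPGR libraries from the 8 in YPD, without overlap. They share TUB1 and TUB3 and are not independent, and how many other ratios separate these libraries was not counted. Between the media 54.1% of all genes in WT and 56% in htl1Δ differed by 0.5 or more on the log2 scale. TUB1 and TUB3 share 81.2% of their coding bases and 91.2% of their residues (447 and 445), so reads could in principle be assigned to the wrong gene. Their longest identical coding stretch has 32 bases and starts at coding position 1222 in both, and none of their 50-base words is shared. The stretch is shown because a read shorter than it could not be placed, and the sources used here give no read length.
TUB1 and TUB3: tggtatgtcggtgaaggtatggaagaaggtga

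**Figure D4:**
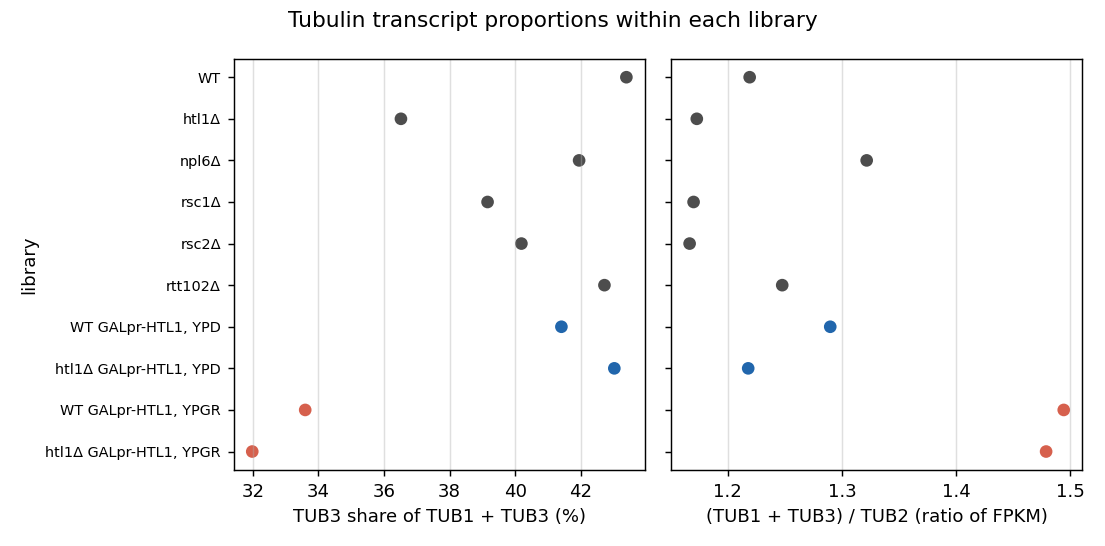
Share of TUB3 in the alpha tubulin FPKM (left, percent) and ratio of summed alpha tubulin to TUB2 FPKM (right) inside each of the 10 libraries, 1 point per library, grey for experiment 1, blue for experiment 2 in YPD and red for YPGR. The 2 YPGR libraries lie at 33.6% and 32.0% and at 1.49 and 1.48, outside the range of the 8 YPD libraries; the axes do not start at 0.

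KIP1, a kinesin-5 motor, was at 13.4 FPKM in WT of experiment 1, 5.95 in htl1Δ, 5.89 in npl6Δ, 6.86 in rsc1Δ, 9.99 in rsc2Δ and 12.3 in rtt102Δ. In experiment 2 it was at 9.99 FPKM in WT and 7.52 in htl1Δ in YPD, and at 7.31 in WT and 10.5 in htl1Δ in YPGR. WT of experiment 1 was thus the highest of the 10 libraries, and htl1Δ, npl6Δ and rsc1Δ were the 3 lowest. About 392 fragments lay behind KIP1 in that WT library, against 178 in htl1Δ, 190 in npl6Δ and 205 in rsc1Δ.

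The KIP1 ratio to WT was -1.05 in htl1Δ, with a 95% counting interval of -1.31 to -0.80. It was -1.07 in npl6Δ, with an interval of -1.32 to -0.82, and -0.87 in rsc1Δ, with an interval of -1.12 to -0.63. In these comparisons 6.15%, 6.87% and 5.22% of all genes differed as much. In rsc2Δ the ratio was -0.39 (interval -0.60 to -0.18), a size met by 33.6% of genes, and in rtt102Δ it was -0.12 (interval -0.33 to 0.09). The authors' deposited table gives KIP1 p-values of 0.0246 in htl1Δ, 0.0246 in npl6Δ and 0.0238 in rsc1Δ, with q-values of 0.805, 0.791 and 0.999. That test sets 1 library against another and does not compare strains.

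The size of these ratios rests in part on the 1 WT library. The WT library of experiment 2 in YPD had a KIP1 value 0.39 below that of experiment 1 on the log2 scale, where 19.3% of genes differed as much between the 2 WT libraries and the other 9 spindle genes lay within 0.16. With that library as the reference the ratio was -0.66 for htl1Δ, -0.67 for npl6Δ, -0.48 for rsc1Δ, -0.00 for rsc2Δ and 0.27 for rtt102Δ. KIP1 was then 2-fold different in none of them. With rtt102Δ as the reference, which is of the a mating type like htl1Δ, rsc1Δ and rsc2Δ, the ratios were -0.93, -0.75 and -0.27, and npl6Δ is of the same alpha type as WT. KIP1 was thus lower in htl1Δ, npl6Δ and rsc1Δ than in each of the references it was set against. Ordered by level, the largest step between neighbouring libraries was 0.37, between htl1Δ in YPD of experiment 2 and rsc2Δ. Every other step was 0.20 or smaller, below the counting half-widths of 0.21 to 0.26 found for KIP1 ratios.

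In experiment 2 the KIP1 ratio of the library labelled htl1Δ to WT was -0.37 in YPD (interval -0.61 to -0.12), where 27.2% of genes differed as much. In YPGR it was 0.48 (interval 0.25 to 0.71), where 5.74% of genes differed as much and where the authors' deposited table gives a p-value of 0.0448 and a q-value of 0.999. The YPD over YPGR ratio was 0.41 in WT and -0.47 in htl1Δ, opposite in sign, with libraries of 1 mating type in WT and of both in htl1Δ, in comparisons where 62.4% and 58% of all genes differed as much. Whether the 2 strains differ in their response to the medium cannot be tested with 1 library each.

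CIN8, the other kinesin-5, whose loss together with that of KIP1 is lethal, was at 16.6 FPKM in WT of experiment 1, 14.3 in htl1Δ, 17.1 in npl6Δ, 20.9 in rsc1Δ, 20.7 in rsc2Δ and 16.9 in rtt102Δ. Its level in experiment 2 was 17.4 FPKM in WT and 13.7 in htl1Δ in YPD, and 15.1 and 15.0 in YPGR. Its ratios were -0.20, 0.04, 0.32, 0.30 and 0.02 in the 5 deletions of experiment 1, so in npl6Δ and rsc1Δ it was not lower with KIP1. Inside each library KIP1 stood at 0.810 of the CIN8 FPKM in WT of experiment 1 and 0.728 in rtt102Δ. It stood at 0.416 in htl1Δ, 0.344 in npl6Δ, 0.328 in rsc1Δ and 0.483 in rsc2Δ. The proportion in experiment 2 was 0.575 in WT and 0.547 in htl1Δ in YPD, and 0.485 and 0.702 in YPGR. The 3 lowest proportions thus belonged to rsc1Δ, npl6Δ and htl1Δ. The 2 proteins share 43.2% of their residues and their genes share no 50-base word.

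**Figure D5:**
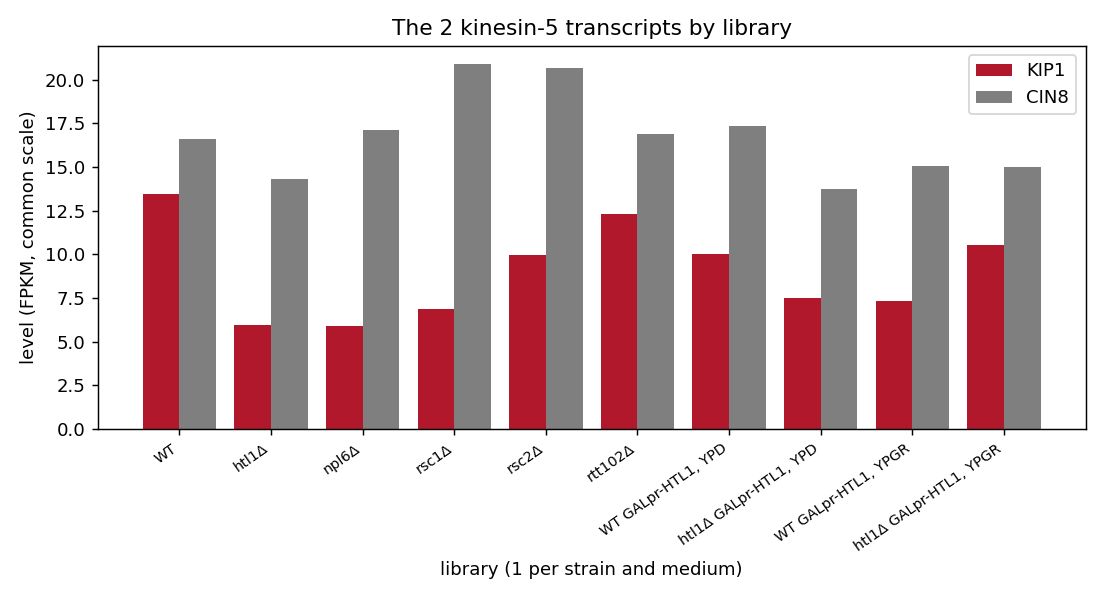
KIP1 (red) and CIN8 (grey) in FPKM on a common scale, 1 bar per library, with no error bars because each strain and medium has 1 library. KIP1 stands at 13.4 FPKM in WT of experiment 1 and at 5.95, 5.89 and 6.86 in htl1Δ, npl6Δ and rsc1Δ, while CIN8 stays between 13.7 and 20.9 in all 10 libraries.

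The gene next to KIP1 on its upstream side, PRX1, a mitochondrial peroxiredoxin, is transcribed in the other direction, with 729 bases between the genes. Its ratio was -0.06 in htl1Δ, -0.27 in npl6Δ and 0.04 in rsc1Δ, so it was not lower to the extent of KIP1. In the medium comparisons it stood at -1.97 in WT and -1.60 in htl1Δ.

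KIP2, a kinesin that carries dynein and plus-end proteins outward along cytoplasmic microtubules, was at 18.6 FPKM in WT of experiment 1, 34.3 in htl1Δ, 22.0 in npl6Δ, 20.4 in rsc1Δ, 24.8 in rsc2Δ and 17.9 in rtt102Δ. KIP2 in experiment 2 was at 18.0 FPKM in WT and 26.3 in htl1Δ in YPD, and at 24.4 and 24.6 in YPGR. The 2 htl1Δ libraries in YPD were thus the highest, though that of experiment 2 lay close to rsc2Δ and the YPGR libraries. Its ratio to htl1Δ in YPGR was 0.07, with a counting interval of -0.12 to 0.25. The ratio of htl1Δ to WT was 0.85 in experiment 1 (counting interval 0.66 to 1.04), 0.53 in experiment 2 in YPD (0.33 to 0.73) and 0.01 in YPGR. In these comparisons 9.35%, 17.1% and 95.4% of all genes differed as much. With rtt102Δ in place of WT the value of experiment 1 was 0.90, and with WT of experiment 2 it was 0.89. In the other deletions the ratio was 0.40 in rsc2Δ, 0.23 in npl6Δ, 0.13 in rsc1Δ and -0.05 in rtt102Δ.

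ASE1, the midzone crosslinker, was at 16.2 FPKM in WT of experiment 1, 25.9 in htl1Δ, 16.0 in npl6Δ, 13.7 in rsc1Δ, 16.2 in rsc2Δ and 15.3 in rtt102Δ. ASE1 in experiment 2 was at 18.1 FPKM in WT and 22.7 in htl1Δ in YPD, and at 17.2 and 15.8 in YPGR. As for KIP2, the highest libraries were the 2 of htl1Δ in YPD. The ratio of htl1Δ to WT was 0.65 in experiment 1 (counting interval 0.46 to 0.83), a size met by 15.7% of genes. It was 0.31 in experiment 2 in YPD (0.13 to 0.49) and -0.11 in YPGR. The value of experiment 1 was 0.72 against rtt102Δ and 0.49 against WT of experiment 2.

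A list of 13 G2/M genes, transcribed as cells enter mitosis, had its highest medians against WT in htl1Δ in YPD, where KIP2 and ASE1 had their highest ratios. In htl1Δ of experiment 1 all 13 lay above 0, where 50% of all genes did, with a median of 0.90 and a range of 0.39 to 1.52. In that comparison 4 of the 13 were at least 2-fold different, against 6.75% of all genes. The 3 largest were KIN3, a mitotic kinase, at 1.52, CLB1, a mitotic cyclin, at 1.16 and CDC20, which activates the ubiquitin ligase of anaphase, at 1.08. In htl1Δ of experiment 2 in YPD 12 of 13 lay above 0, where 48.9% of all genes did, with a median of 0.52. The highest was the mitotic exit kinase DBF2 at 1.10, and the 1 below 0 was CLB1 at -0.76. In YPGR the htl1Δ median was 0.11. In npl6Δ the median was 0.31, in rsc1Δ 0.04, in rsc2Δ 0.17 and in rtt102Δ -0.02. Between the media the list and the 2 genes did not go together: the YPD over YPGR median of the list was 0.54 in WT and 0.88 in htl1Δ, against -0.42 and 0.07 for KIP2 and 0.07 and 0.47 for ASE1. A list of 10 G1/S genes, 9 or 10 of them measured, had medians of 0.19 in htl1Δ, 0.58 in npl6Δ, 0.29 in rsc1Δ, 0.66 in rsc2Δ and 0.20 in rtt102Δ. The same list had medians of 0.27 and 0.08 for htl1Δ of experiment 2 in YPD and YPGR, and of 0.85 and 1.17 between the media in WT and htl1Δ. The 8 histone genes, transcribed in S phase, all lay below 0 in htl1Δ of experiment 1 and of experiment 2 in YPD. Of all genes 50% and 48.9% lay above 0 in these comparisons. The histone medians were -0.63 and -0.74 there, and 0.02 in YPGR. In the other deletions they were 0.43 in npl6Δ, 0.25 in rsc1Δ, 0.47 in rsc2Δ and 0.12 in rtt102Δ, with 8, 8, 6 and 8 of the 8 above 0. Of all genes 50.5%, 50.5%, 50.1% and 50.9% lay above 0 in these 4 deletions. Between the media the histone medians were 0.26 in WT and -0.57 in htl1Δ. The part of the cell-cycle composition of the cultures in the KIP2 and ASE1 values was not tested. In bulk RNA, more cells in a stage and more RNA per cell cannot be told apart.

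KIP3, the plus-end depolymerase, was at 18.0 FPKM in WT of experiment 1 and at 17.3 to 21.0 in its 5 deletions. KIP3 in experiment 2 was at 19.8 FPKM in WT and 19.5 in htl1Δ in YPD, and at 13.1 and 14.0 in YPGR. The 2 YPGR libraries were below all 8 in YPD, and the share of all genes that do so was not counted. The YPD over YPGR ratio was 0.57 in WT (counting interval 0.37 to 0.77) and 0.42 in htl1Δ (0.21 to 0.63), where 49.3% and 61.6% of all genes differed as much. The KIP2 level was 0.906 to 1.35 times that of KIP3 in 7 of the 8 YPD libraries, 1.77 times in htl1Δ of experiment 1, and 1.87 and 1.75 times in WT and htl1Δ in YPGR. KIP2 itself had a YPD over YPGR ratio of -0.42 in WT and 0.07 in htl1Δ.

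KAR3, the minus-end motor, was at 13.9 FPKM in WT of experiment 1, and between 12.7 in htl1Δ and 14.7 in rtt102Δ in the 5 deletions. KAR3 in experiment 2 was at 14.0 FPKM in WT and 12.3 in htl1Δ in YPD, and at 12.5 and 14.2 in YPGR. None of its 9 ratios exceeded 0.22 in size, and each counting interval held 0. KAR3 is known as a gene that mating pheromone induces. The 5 other pheromone-induced genes listed lay below 0 in each deletion of experiment 1, where 50% to 50.9% of all genes lay above 0. Their medians were -1.01 in htl1Δ, -1.45 in npl6Δ, -0.91 in rsc1Δ, -0.99 in rsc2Δ and -0.40 in rtt102Δ. In htl1Δ of experiment 2 their median was -1.76 in YPD and, with 3 measured, 0.02 in YPGR. In WT all 5 were at least 2-fold higher in YPD than in YPGR, with a median of 1.94, where 26.2% of all genes were 2-fold different either way and KAR3 stood at 0.15. In the medium comparison of htl1Δ 3 were measured, with a median of 0.05 and none at 2-fold.

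STU1, the CLASP, and KIP1 were the 2 lowest of the 10 genes in every library. STU1 was at 6.99 FPKM in WT of experiment 1, 8.41 in htl1Δ, 8.33 in npl6Δ, 6.31 in rsc1Δ, 8.53 in rsc2Δ and 6.99 in rtt102Δ. In experiment 2 it was at 7.21 FPKM in WT and 7.72 in htl1Δ in YPD and at 6.92 in both strains in YPGR. Its ratios lay between -0.13 and 0.25. STU1 holds 1 CGCGC match upstream, and whether matches and ratios go together was not tested.

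Other genes of the spindle pathway were counted in the same way. Of 10 kinesin partners and plus-end proteins none was 2-fold different in any of the 7 deletion comparisons, with medians of -0.09 to 0.12. Of 10 dynein pathway genes none was in any of the 9, with medians of -0.06 to 0.31. Of 7 spindle checkpoint genes, 6 of them measured in 2 of the comparisons, none was in any of the 9, with medians of -0.02 to 0.17. In the deletion comparisons 1.68% to 7.85% of all genes were at 2-fold. A count of 0 in lists this short is near that background and sets none of them apart. In the 2 medium comparisons, with 26.2% and 27% of all genes at 2-fold, the dynein and checkpoint counts of 0 lay below the background. That difference was not tested. BIM1, the plus-end protein that recruits others and that was chosen after its values were seen, was at 77.7 FPKM in WT and 49.7 in htl1Δ, a ratio of -0.63. Its ratio was -0.40 in npl6Δ, -0.41 in rsc1Δ, 0.06 in rsc2Δ and 0.28 in rtt102Δ. The 10 kinesin partners and plus-end proteins, BIM1 among them, ranged from -0.63 to 0.71 in htl1Δ and from -0.90 to 0.75 in npl6Δ. In experiment 2 the BIM1 ratio of htl1Δ to WT was -0.53 in YPD and -0.06 in YPGR, and between the media it was 0.37 in WT and -0.13 in htl1Δ.

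Tubulin must be folded and paired before it can polymerise, and the genes for this were a further list. Of 7 tubulin cofactors and related factors 1 was 2-fold lower in npl6Δ, where 7.85% of all genes were 2-fold different either way. ALF1, the alpha tubulin cofactor B, was at 43.6 FPKM in WT and 17.5 in npl6Δ, a ratio of -1.27. It was at -0.78 in htl1Δ, -0.56 in rsc1Δ, -0.13 in rsc2Δ and 0.11 in rtt102Δ, with no CGCGC match upstream. ALF1 was thus lowest in the same 3 strains of experiment 1 as KIP1, against the same WT library. The 6 prefoldin genes encode a complex that hands nascent tubulin and actin to a chaperonin. Of these GIM4 was at -1.02 in rsc1Δ, where 4.15% of all genes were 2-fold different, and no other reached 2-fold in a deletion comparison. Of the 8 genes of that chaperonin, CCT, none did, with medians of -0.07 to 0.09. With 1.68% to 7.85% of all genes at 2-fold in the deletion comparisons, counts of 0 or 1 in such short lists set none apart.

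In the medium comparisons the chaperonin and prefoldin genes stood higher in YPD, as did TUB2 and TUB3, and the tubulin cofactors were mixed. All 8 CCT genes lay above 0 in both strains, with medians of 0.68 in WT and 0.66 in htl1Δ, and CCT5 was the only one at 2-fold, at 1.19 and 1.33. All 6 prefoldin genes lay above 0 too, with medians of 0.80 and 0.91, led by GIM4 at 1.13 and GIM3 at 1.12 in WT and by GIM3 at 1.38 in htl1Δ. Of the 7 cofactors 5 lay above 0 in WT, with a median of 0.15, and 6 in htl1Δ, with a median of 0.48. They ranged from -0.19 to 0.43 in WT and from -0.10 to 1.06 in htl1Δ, where RBL2, a beta tubulin cofactor, was the highest and ALF1 the lowest. Of the plus-end proteins, IRC15, a microtubule-associated protein, was at 1.14 in WT. All genes had medians of 0.01 and -0.01 in these comparisons, and 50.5% and 49.7% of them lay above 0. Of all genes 26.2% and 27% were 2-fold different.

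Genes were ranked by Pearson correlation of log2(FPKM + 1) with 2 of the 10 genes over the 10 libraries, among 5682 genes at 5 FPKM or more in every library, as a description. The libraries share their scaling, the 2 media and the strain pairs. For TUB2 the closest were DED81, an asparaginyl-tRNA synthetase gene (r = 0.973), SEC53, which encodes phosphomannomutase (0.966), and REA1, a ribosome assembly gene (0.966). For KIP1, the gene with the widest range, they were KTR7, a mannosyltransferase gene (0.928), ATF1, an alcohol acetyltransferase gene (0.924), and YHL017W (0.914).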

How the data were processed

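The authors deposited 9 tables, each with the FPKM of 2 of the 10 libraries, made with TopHat, Cufflinks and Cuffdiff on sacCer3, per the submitters' processing notes; the sources used here give no version, read length or strand. Polyadenylated RNA was enriched with oligo-dT and read on a HiSeq, per the labels' protocols. Each p-value or q-value cited comes from the authors' deposited Cuffdiff test of 1 library against another. Table scales differed by constant factors (up to 1.05 within experiment 1), removed through shared libraries; the experiments were tied by the median ratio of their WT libraries in YPD (0.951). Measured genes had status OK and at least 5 FPKM in 1 library; the pseudocount was 1 FPKM. Of 6931 rows, 115 naming several genes were left out. RefSeq R64 named 5859 genes and supplied the upstream sequences. Fragments were estimated from low FPKM with an effective length 200 bases below locus length; 82% to 90.5% of those values were whole within 0.1.

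The genes and lists were chosen with earlier results of these data known. Named were all 10 genes, the deleted genes and up to 3 members per list and comparison at least 2-fold different. Also named were the 3 genes most like TUB2 and the most variable member. BIM1, PRX1 and further ALF1 and CLB1 values were added after the data were seen. The result of 1 listed gene is not reported here. Alternatives were pseudocounts of 0.1 and 10 FPKM, no filter, a 20 FPKM filter and median centring; rtt102Δ and WT of experiment 2 as references were added after the data were seen. The ratio and depth steps were tested on simulated data. Python 3.11.15, pandas 2.3.3, NumPy 2.4.6, Biopython 1.88 and matplotlib 3.10.9 were used.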

Additional observations from a re-analysis of the deposited data

How the results depend on the processing

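KIP1 is low, so a pseudocount near its level or a filter above it removes its 2-fold difference by construction. The difference stayed at 2-fold with a pseudocount of 0.1 FPKM, at -1.16 in htl1Δ and -1.18 in npl6Δ. It also did so with centring and without the filter. With a pseudocount of 10 FPKM the number of the 10 genes at 2-fold was 0 in htl1Δ and 0 in npl6Δ, and at the 0.5 rule it was 0 in rsc1Δ, 0 in htl1Δ of experiment 2 in YPD and 0 in the WT medium comparison. A filter of 20 FPKM leaves KIP1 out and gave 0 at 2-fold in htl1Δ and npl6Δ and 0 at the 0.5 rule in npl6Δ and rsc1Δ. With 4 to 6 genes left, its medians were 0.22 in htl1Δ, 0.22 in npl6Δ, 0.19 in rsc1Δ, 0.35 in rsc2Δ, 0.41 between media in WT and 0.38 in htl1Δ. With a pseudocount of 0.1 FPKM the 0.5 rule was met by 1 gene in htl1Δ in YPGR and by 1 between media in htl1Δ, and with centring by 1 between media in WT. No called ratio changed sign, and dropping the filter moved no count by over 1.5 times. Of 50 ratios to WT of experiment 1, 10 moved beyond their counting half-width with WT of experiment 2 as reference: the 5 of TUB1 and the 5 of KIP1. The 5 ratios of a gene moved together and are not separate results. They share the difference of WT of experiment 2 from WT of experiment 1, 0.10 for TUB1 and -0.39 for KIP1. No paired analysis was possible because each strain and medium had 1 library. At these depths the counting half-width of a KIP1 ratio was 0.21 to 0.26, and the spread between cultures is unknown.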

Other observations

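The CGCGC matches were also counted over all genes, with bins chosen after the KIP1 window was known, as a description without a test. KIP1 was among the 24 measured genes with 4 or more matches in the 300 bases upstream. Of these 24, 6 (25%) were at least 2-fold lower in htl1Δ, where 2.36% of all 5503 genes with a window were. In npl6Δ those 2-fold lower were 3 (12.5%, against 2.52%) and in rsc1Δ 5 (20.8%, against 1.57%). KIP1 itself is 1 of the 6 in htl1Δ and 1 of the 3 in npl6Δ. A palindromic run counts once on each strand, so separate sites can be fewer than matches. In rsc2Δ and in rtt102Δ the 2-fold lower genes were 0 of 24, against 2.13% and 0.77%. Among genes with 2 or 3 matches 4.08% were 2-fold lower in htl1Δ, 2.7% in npl6Δ and 3.42% in rsc1Δ, so the share did not grow with each bin in npl6Δ. Among genes with 1 match 3.27% were 2-fold lower in htl1Δ, 3.48% in npl6Δ and 1.65% in rsc1Δ, and among genes with none 2.11%, 2.37% and 1.41%. The 5 comparisons share 1 WT library. In htl1Δ of experiment 2 in YPD 2 of 24 were 2-fold lower (8.33%, against 1.54%), and in YPGR 0 of 23. In YPD against YPGR the genes with 4 or more matches that were 2-fold lower were 1 of 25 in WT (4%, against 12.4%) and 6 of 24 in htl1Δ (25%, against 12.8%).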
